A study of Mus musculus with 48 samples.

Results

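The hippocampal regions were compared with the cortical regions of the same mouse brains, gene by gene. Transcripts were measured by GeoMx digital spatial profiling, in which DNA-tagged probes bind their transcripts on a tissue section and UV light frees the tags inside a selected area of illumination (AOI) for sequencing. The series holds 48 AOIs from 12 mice, and every AOI entered the comparison: 24 hippocampal AOIs, 1 from CA (Cornu Ammonis 1) and 1 from DG (dentate gyrus) of each mouse, and 24 cortical AOIs, 1 from FCT (frontal cortex) and 1 from CT (cortex) of each mouse. For each of 15782 genes and each mouse, the mean of log2(value + 1) in FCT and CT was subtracted from the mean in CA and DG, where the value is the authors' count after Q3 normalization (each AOI scaled to a common upper quartile). These 12 differences were the data of the test, so that the mouse was the replicate.

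The hippocampal formation and the neocortex both arise from the dorsal telencephalon and both consist mainly of glutamatergic principal neurons with smaller numbers of GABAergic interneurons and glia. CA1 holds a compact layer of pyramidal cells, the dentate gyrus a dense layer of small granule cells, and the neocortex stacked layers of projection neurons with different targets. Hippocampal principal cells are known for strong NMDA- and AMPA-receptor-dependent synaptic plasticity and for a high density of mineralocorticoid receptors, and cortical projection neurons for long myelinated axons.

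All mice were male C57BL/6 animals, 10 weeks old at launch, in 4 groups of 3. FLT-SAL mice spent 35 days on the International Space Station and received saline, and GC-SAL mice received saline in flight hardware cages on the ground. FLT-BuOE and GC-BuOE mice were housed in the same 2 ways and received BuOE, a manganese porphyrin that mimics superoxide dismutase, at 1 mg/kg in 0.2 mL subcutaneously from 7 days before launch and then weekly. After splashdown the flight animals were in the laboratory within 20 h, and the ground protocol ran 3 days behind. Each group had its 3 mice on a slide of its own, and slide and group cannot be told apart, whereas the 4 AOIs of a mouse lay on the same slide and a slide effect common to all 4 regions cancels in the difference between regions. AOIs were placed on sections stained for nuclei, GFAP and Iba1, so *Gfap* is no independent finding here.

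The AOIs of the 2 structures differed in size and depth. Deduplicated reads per AOI ranged from 322629 to 1579380, and the hippocampal AOIs of a mouse had fewer reads than its cortical AOIs in 12 of 12 mice (mean log2 reads 19.19 ± 0.40 against 19.68 ± 0.46, SD, n = 12; exact sign-flip permutation test, two-sided, p = 0.000488, the smallest 12 mice allow; adjusted over 6 properties p = 0.00146). They also covered less area in 12 of 12 mice (128703 against 179319 square micrometres, adjusted p = 0.00146 in the same exact test) and held fewer nuclei in 11 of 12 (400.5 ± 47.97 against 490.9 ± 80.5, adjusted p = 0.00781 in the same exact test). The negative controls are probes without a target in the mouse. After Q3 normalization their level was higher in hippocampus in 10 of 12 mice, but the difference did not pass the exact test (14.9 ± 0.97 against 14.5 ± 1.24, exact adjusted p = 0.402). It lay mostly above cortex in CA, at 16.1 to 20.9, and mostly below it in DG, at 9.24 to 13.5, with FCT at 12.1 to 18.0 and CT at 13.3 to 16.8. The share of genes above 1.5 times this background had a median of 82.5% in FCT and 77.9% in CT but 59.8% in CA and 92.7% in DG. A low gene in CA therefore sits on a higher floor than in DG, and an AOI with fewer cells of a type cannot be told apart from one with less RNA per cell.

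Levels of defining markers were set beside the region labels. The marker lists were chosen with earlier results of these data known, so this is a description and no independent test of the labels. Over 12 markers of dentate granule cells, the summed level was 812 to 1256 in DG against 298 to 369 in CA, 320.2 to 411 in FCT and 305 to 390.2 in CT, so that DG stood apart from the other 3 regions in every mouse. Over the 11 analysed markers of CA pyramidal cells, the sum was 694 to 912 in CA, 340.2 to 411 in DG, 500.3 to 644 in FCT and 469 to 706 in CT. The ranges of CA and CT overlapped, so this sum did not set CA apart from all other regions. No marker of any list was at 0 in all AOIs, and neither was any other of the 15782 genes.

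Genes were called when the adjusted p of limma (Benjamini-Hochberg over 15782 genes) was below 0.05 and the difference exceeded log2 of 1.5. By this rule 139 genes were higher in hippocampus (0.881% of those tested) and 364 were higher in cortex (2.31%). Without the threshold on the fold, 1474 and 2062 genes passed, while the median absolute difference over all genes was 0.11 and the median difference 0.03 on the log2 scale. A difference beyond 1 log2 unit was seen for 42 genes in favour of hippocampus and 59 in favour of cortex. The difference had the same sign in all 12 mice for 134 of the 139 genes and 349 of the 364, where 399 (2.53%) and 828 (5.25%) of all genes had the same sign in 12 mice. The called genes were picked on these same 12 differences, so their agreement in sign is a description and no independent support. None of the called genes had a mean level under 1.5 times the negative controls, although 12.4% of all genes did. Background was not subtracted from the values, so the change of such low genes is understated, and the added 1 understates it slightly further. This makes the fold threshold harder for them to pass. With the negative-control value subtracted before the log, 443 and 1194 genes were called, including all 139 and 364.

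An average over CA and DG can rest on 1 of the regions, so each was tested against each cortical region. All 4 pairs (CA-FCT, CA-CT, DG-FCT and DG-CT) were called in the same direction for 54 genes higher in both hippocampal regions (0.342% of all genes) and 170 genes lower in both (1.08%). A further 58 of the 139 genes passed both DG pairs but not both CA pairs, 24 passed both CA pairs but not both DG pairs, and 3 neither. Among the 364 genes higher in cortex, the same counts were 108, 61 and 25. Counted by pair, 185 genes were higher in CA and 332 in FCT, 166 in CA and 462 in CT, 293 in DG and 424 in FCT, and 345 in DG and 568 in CT. These 4 pairs share AOIs and are not independent.

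**Figure D1:**
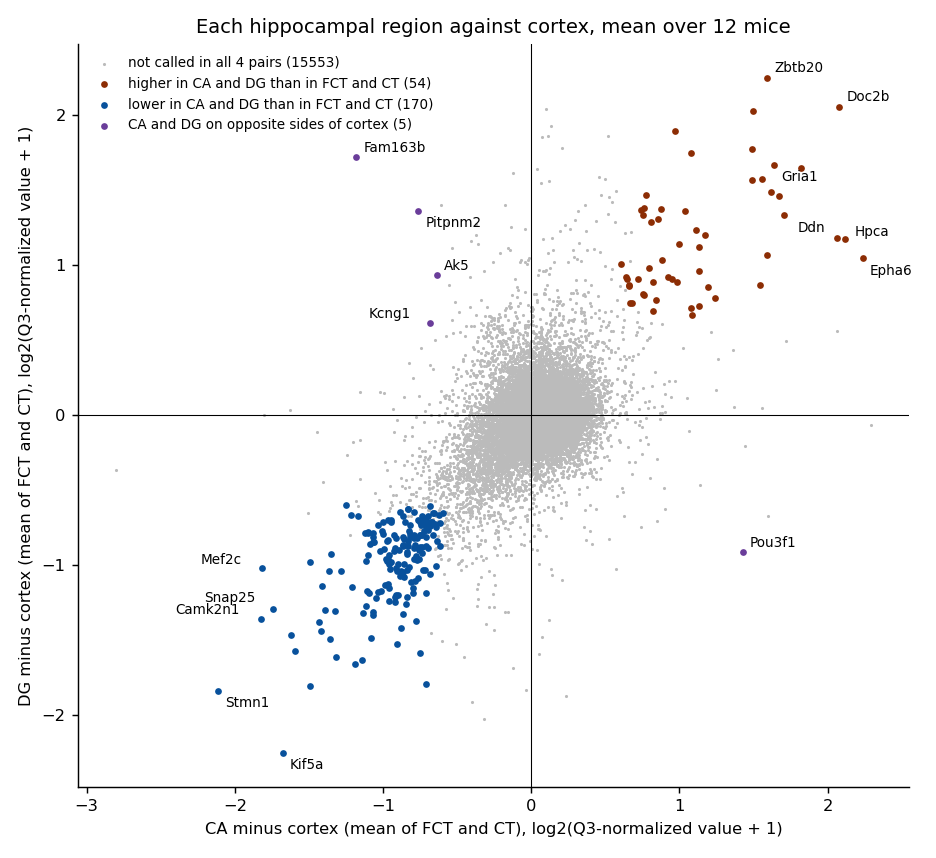
Each of 15782 genes is placed by its mean difference between CA and cortex (x axis) and between DG and cortex (y axis), in log2(Q3-normalized value + 1), over 12 mice. Brown points are the 54 genes higher in both hippocampal regions, blue points the 170 genes lower in both, and purple points the 5 genes on which CA and DG lie on opposite sides of both cortical regions.

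The largest difference in favour of hippocampus belonged to *Doc2b* (chr11:75768966-75796049 on GRCm38), which encodes a calcium sensor of vesicle release. Its Q3-normalized value ranged from 72.6 to 132 (median 95.5) in CA, from 81.7 to 117 (median 91.8) in DG, from 14.2 to 37.3 (median 26.00) in FCT and from 10.9 to 34.4 (median 21.2) in CT. All 24 hippocampal AOIs lay above all 24 cortical AOIs, and the difference was 2.07 ± 0.073 (SE) on the log2 scale, 4.19-fold (limma, adjusted p = 2.9e-41). Its lowest cortical values reached the level of the negative controls in those regions (12.1 to 18.0 in FCT, 13.3 to 16.8 in CT), which was not subtracted for this fold. Its smallest difference among the 4 region pairs, 1.91, was the largest such value among the genes called in all 4 pairs, and DG minus CA was -0.02 (adjusted p = 0.90). Here and below, overlap of AOIs was counted for named genes alone, many of them picked for a large difference. Its share over all genes was not counted. The mouse and not the AOI is the replicate, so counts of AOIs without overlap are descriptions.

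*Zbtb20* (chr16:42875881-43642602), a zinc finger repressor known for its part in specifying hippocampal neurons, ranged from 63.7 to 118 (median 97.8) in CA, from 117 to 171 (median 155) in DG, from 22.7 to 44.7 (median 30.6) in FCT and from 24.6 to 36.4 (median 30.6) in CT. Hippocampal and cortical AOIs did not overlap for this gene either, and the difference was 1.92 ± 0.066 (3.78-fold, adjusted p = 4.2e-42), with DG above CA by 0.66 (adjusted p = 2.3e-08). *Cpne6* (chr14:55510445-55517431), a calcium-dependent phospholipid-binding copine of dendritic spines, had values of 65.9 to 190.1 (median 123) in hippocampus against 18.1 to 54.9 (median 34.8) in cortex and a difference of 1.76 ± 0.063 (adjusted p = 5.8e-41). *Sipa1l3* (chr7:29320372-29518641), of a family of postsynaptic Rap GTPase-activating proteins, ranged from 104 to 169 (median 142) in CA, from 93.4 to 139 (median 122) in DG, from 24.01 to 54.8 (median 38.6) in FCT and from 28.9 to 48.03 (median 38.5) in CT. It differed by 1.73 ± 0.059 (3.33-fold, adjusted p = 4.2e-42) and by at least 1.64 in every region pair, again without overlap.

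*Gria1* (chr11:57011387-57330244), the GluA1 subunit of AMPA receptors, ranged from 208 to 311 (median 271) in CA, from 215 to 319 (median 271) in DG, from 58.6 to 118 (median 80.6) in FCT and from 61.8 to 117 (median 84.8) in CT. Its medians in CA and DG were nearly the same, as were those in FCT and CT, and the 4 pair differences were 1.67 and 1.60 for CA and 1.70 and 1.63 for DG. The difference was 1.65 ± 0.053 (3.14-fold, adjusted p = 2.2e-44). *Hpca* (chr4:129111570-129122036), hippocalcin, a neuronal calcium sensor, ranged from 402 to 886 (median 581) in CA, from 194 to 432 (median 286) in DG, from 84.3 to 183 (median 111) in FCT and from 115 to 223 (median 158) in CT, and 23 of 24 hippocampal AOIs lay above every cortical AOI. Its difference was 1.64 ± 0.045 (3.12-fold, adjusted p = 2.4e-49), and DG minus CA was -0.95 (adjusted p = 1.2e-21). *Nr3c2* (chr8:76899442-77245012), the mineralocorticoid receptor, was at 71.2 to 141 (median 93.4) in hippocampus against 24.3 to 40.02 (median 30.3) in cortex, without overlap, a difference of 1.63 ± 0.062 (adjusted p = 1.2e-38).

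*Ddn* (chr15:98803777-98809490), dendrin, a protein whose mRNA is carried into dendrites, was at 717 to 954 (median 758) in CA and 368 to 575 (median 419.7) in DG against 127 to 284 (median 192) in FCT and 123 to 256 (median 194) in CT. The 4 ranges put both hippocampal regions above both cortical ones, with CA above DG, and the difference was 1.62 ± 0.044 (3.08-fold, adjusted p = 9.3e-50). *Epha6* (chr16:59653483-60605531), an ephrin receptor of axon guidance, followed the same order of regions, 158 to 233 (median 187) in CA, 67.2 to 105 (median 84.6) in DG, 30.02 to 55.1 (median 36.98) in FCT and 33.4 to 49.3 (median 40.6) in CT, and differed by 1.64 ± 0.058 (adjusted p = 2.7e-41). The remaining 3 of the 12 leading genes were *Scn3b* (chr9:40269217-40291618), a sodium channel beta subunit, *Lrrc10b* (chr19:10455371-10457473), of the leucine-rich repeat family, and *Wipf3* (chr6:54429603-54503768), of the WASP-interacting family. *Scn3b* differed by 1.57 ± 0.064, *Lrrc10b* by 1.56 ± 0.077 and *Wipf3* by 1.55 ± 0.062 (adjusted p = 1.2e-36, 1.9e-31 and 1.4e-37). For these 3 genes 24, 24 and 23 of the 24 hippocampal AOIs lay above all cortical AOIs.

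**Figure D2:**
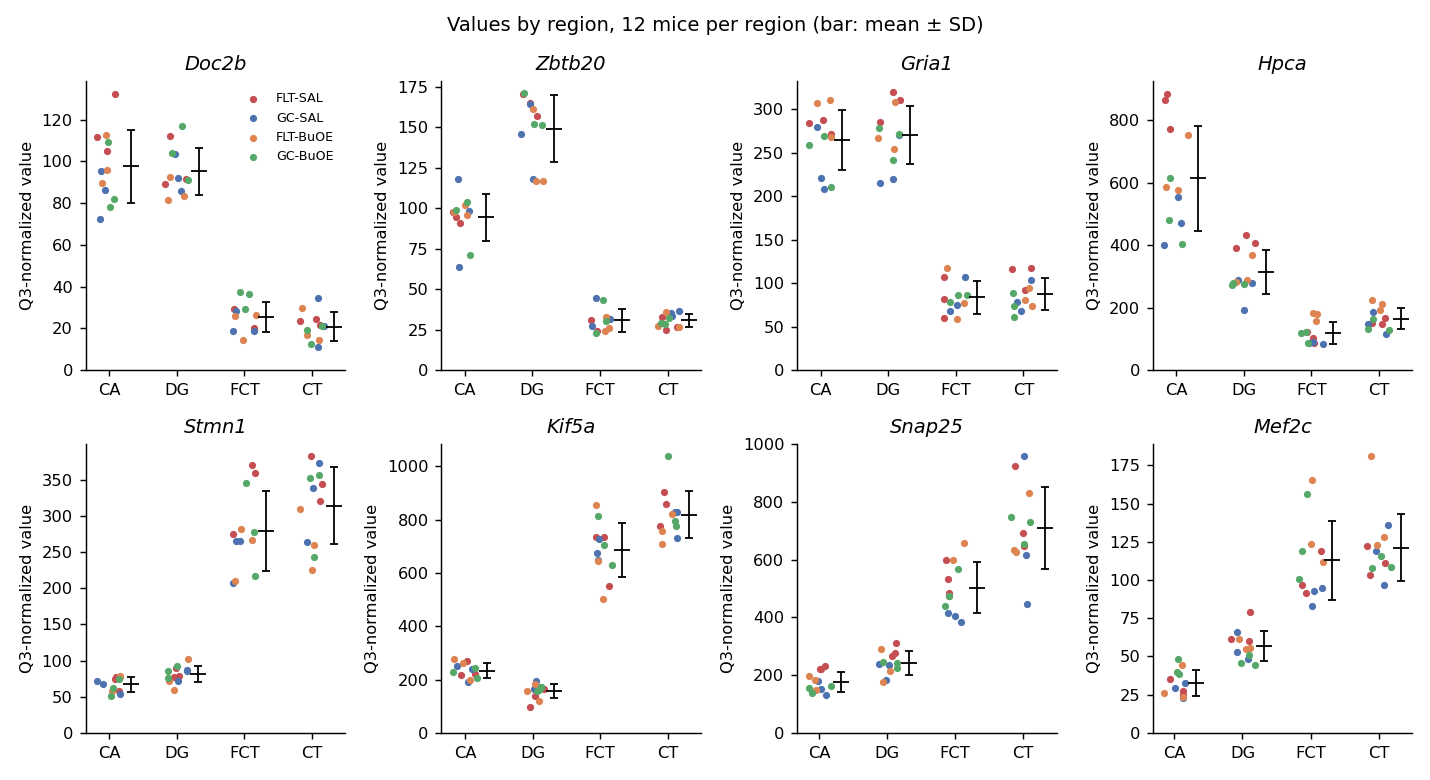
Q3-normalized values (y axes, linear, from 0) of 4 genes higher in hippocampus (*Doc2b*, *Zbtb20*, *Gria1*, *Hpca*) and 4 higher in cortex (*Stmn1*, *Kif5a*, *Snap25*, *Mef2c*) are plotted by region, 1 point for each of 12 mice, coloured by group, with mean ± SD. In *Gria1* the hippocampal AOIs lie between 208 and 319 and the cortical AOIs between 58.6 and 118; in *Stmn1* the hippocampal AOIs lie between 50.6 and 103 and the cortical AOIs between 207 and 383.

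On the cortical side the largest difference was that of *Stmn1* (chr4:134468320-134473843), stathmin, which binds tubulin and destabilizes microtubules. Its values ranged from 50.6 to 78.3 (median 70.3) in CA, from 60.03 to 103 (median 82.2) in DG, from 207 to 371 (median 271) in FCT and from 226 to 383 (median 329) in CT. Every cortical AOI was above every hippocampal AOI, and the difference was -1.98 ± 0.05 (3.94-fold, adjusted p = 1.4e-51). *Kif5a* (chr10:127225696-127263348), a neuronal kinesin heavy chain of anterograde axonal transport, ranged from 189.7 to 276 (median 233) in CA, from 98.6 to 195 (median 161) in DG, from 500.3 to 855 (median 690.4) in FCT and from 707 to 1037 (median 807) in CT. It had the smallest adjusted p of the named genes (1.2e-58), with a difference of -1.97 ± 0.04 (3.91-fold) and a range over mice of -2.14 to -1.80. *Cit* (chr5:115845278-116008947), citron kinase, was at 16.6 to 43.4 (median 31.3) in hippocampus against 63.2 to 118 (median 95.2) in cortex, a difference of -1.59 ± 0.066 (adjusted p = 2.9e-36).

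*Stx1a* (chr5:135023482-135051100) and *Snap25* (chr2:136713453-136782428) encode plasma membrane members of the SNARE complex, and *Cplx1* (chr5:108518554-108550024) encodes complexin, which binds that complex. *Snap25* ranged from 132 to 232 (median 172) in CA, from 175 to 312 (median 239) in DG, from 383 to 658 (median 479.7) in FCT and from 448 to 959.9 (median 674) in CT, and its difference was -1.52 ± 0.042 (2.87-fold, adjusted p = 7.6e-49). *Stx1a* was at 32.6 to 71.2 (median 47.3) in hippocampus against 76.6 to 197 (median 158) in cortex, a difference of -1.65 ± 0.06 (adjusted p = 1.7e-40). *Cplx1* was at 83.5 to 176 (median 131) against 194 to 657 (median 417), a difference of -1.54 ± 0.046 (adjusted p = 2.5e-46). None of the 3 had a hippocampal AOI inside the cortical range.

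*Camk2n1* (chr4:138454314-138460123), an inhibitor of the kinase CaMKII, ranged from 252 to 397 (median 318) in CA, from 305 to 574 (median 430.3) in DG, from 523 to 1861 (median 848) in FCT and from 949 to 2067 (median 1328) in CT. The difference was -1.59 ± 0.042 (3.01-fold, adjusted p = 1.6e-50), and 23 of 24 hippocampal AOIs lay below all cortical ones. *Mef2c* (chr13:83504034-83667080), a transcription factor of cortical neurons, ranged from 22.9 to 48.4 (median 30.9) in CA, from 44.5 to 79.3 (median 55.3) in DG, from 83.2 to 165 (median 106) in FCT and from 96.8 to 181 (median 117) in CT. It was lowest in CA, where the pair differences were -1.76 and -1.87, and DG minus CA was 0.80 (adjusted p = 6.1e-11), with an average difference of -1.42 ± 0.063 (adjusted p = 1.6e-34). The other 4 leading genes were *Kcnt1* (chr2:25863734-25918273), a sodium-activated potassium channel, at -1.47, *Coro6* (chr11:77462411-77470484), an actin-binding coronin, at -1.43, *Vsnl1* (chr12:11325242-11436613), visinin-like calcium sensor, at -1.43, and *Arpp19* (chr9:75037614-75060313), a regulator of protein phosphatase PP2A, at -1.43. The cortical and hippocampal AOIs of these 4 genes did not overlap (24 of 24 below all cortical AOIs in each), and adjusted p was 7.5e-34, 2.2e-34, 1.4e-37 and 6.3e-37.

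Genes on which CA and DG lay on opposite sides of both cortical regions were few. *Pou3f1*, a POU-domain transcription factor, was the single gene (0.00634% of all genes) higher in CA and lower in DG, with values of 73.1 to 141 (median 93.9) in CA, 11.7 to 33.8 (median 18.2) in DG, 15.01 to 42.9 (median 29.9) in FCT and 24.5 to 60.03 (median 42.8) in CT. Its DG values reached down to the level of the negative controls in that region (9.24 to 13.5), and DG minus CA was -2.34 (adjusted p = 1.3e-26). The reverse pattern was called for 4 genes (0.0253%), *Fam163b*, *Pitpnm2*, *Ak5* and *Kcng1*. *Fam163b* was at 16.9 to 54.6 (median 35.3) in CA, 221 to 379 (median 261) in DG, 52.9 to 103 (median 83.7) in FCT and 62.4 to 102 (median 81.2) in CT. All 12 DG values lay above all cortical values while CA, at most 54.6, overlapped the lowest cortical values alone, so that the averaged difference was 0.27 ± 0.056 although DG minus CA was 2.90 (adjusted p = 4.4e-37). *Pitpnm2*, a phosphatidylinositol transfer protein, had pair differences of -0.78 and -0.75 for CA and 1.34 and 1.37 for DG. For *Ak5*, an adenylate kinase of brain, they were -0.68 and -0.60 for CA and 0.89 and 0.97 for DG, and for *Kcng1*, a modifier subunit of potassium channels, -0.71 and -0.66 for CA and 0.59 and 0.63 for DG. These counts moved with the processing, from 0 to 4 and from 2 to 71 over the alternatives.

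Gene lists were read against the background that 0.881% of all genes were called higher in hippocampus and 2.31% higher in cortex, with a median difference of 0.03. The lists were chosen with earlier results of these data known, and their counts are descriptions. Of 10 genes listed as common to hippocampal fields, 9 were called higher in hippocampus and 8 of these in all 4 pairs, with a list median of 1.53. *Cabp7*, a calcium-binding protein, was at 44.5 to 107 (median 60.7) in hippocampus against 7.15 to 37.2 (median 24.1) in cortex, without overlap, and differed by 1.52 ± 0.073 (adjusted p = 4.9e-32). *Itpka*, an inositol trisphosphate kinase of dendritic spines, differed by 0.70 ± 0.058 (adjusted p = 3.1e-18), but its pairs with DG were 0.29 and 0.04. *Lhx2*, a LIM-homeodomain factor of the developing cortex and hippocampus, was not called (-0.0048 ± 0.072, adjusted p = 0.98).

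The 12 dentate granule cell markers all had positive differences, with 8 called, but none was called in all 4 pairs. Their median was 0.65, made of 1.38 for DG minus cortex and 0.12 for CA minus cortex. *Prox1*, the homeobox factor that maintains granule cell identity, was at 88.4 to 149 (median 111) in DG, 20.01 to 41.5 (median 34.95) in CA, 22.9 to 41.5 (median 31.3) in FCT and 17.7 to 35.4 (median 26.9) in CT. The 12 DG values lay above all others, CA overlapped cortex, and the pair differences were 0.04 and 0.22 for CA and 1.83 and 2.02 for DG, with an average of 1.03 ± 0.073 (adjusted p = 6.8e-22). *C1ql2*, a secreted C1q-like synaptic protein, showed the same pattern with 69.00 to 124 (median 92.00) in DG against 17.2 to 43.1 (median 27.1) in CA and 17.8 to 48.6 (median 24.8) in cortex (difference 0.99 ± 0.076, adjusted p = 1.1e-19). *Plk5* differed by 0.99, *Dock10* by 0.74 and *Calb1*, calbindin, by 0.63, all called, whereas *C1ql3* at 0.39 passed the p but not the fold threshold.

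Of the 11 CA pyramidal cell markers, 3 were called higher in hippocampus and 2 higher in cortex, with a median of -0.08. *Fibcd1*, an acetyl-group-binding membrane protein, was at 55.4 to 112 (median 96.99) in CA, 21.1 to 42.2 (median 31.1) in DG, 9.78 to 27.3 (median 22.7) in FCT and 13.9 to 25.5 (median 21.8) in CT, and differed by 1.31 ± 0.078 (adjusted p = 4.2e-26). *Wfs1*, wolframin of the endoplasmic reticulum, was at 59.3 to 133 (median 82.3) in CA against 17.7 to 43.7 (median 31.3) in cortex and 21.1 to 40.02 (median 31.3) in DG, and differed by 0.80 ± 0.07 (adjusted p = 4.3e-17). In DG the differences from FCT and CT were 0.54 and 0.57 for *Fibcd1* and 0.07 and 0.01 for *Wfs1*. *Mpped1* and *Dkk3*, a secreted protein of the dickkopf family, were within or near the cortical range in CA, at 111 to 169 (median 142) and 91.9 to 178 (median 142) in CA against 80.05 to 162 (median 116) and 88.4 to 209 (median 141) in cortex. Both were low in DG, at 27.5 to 37.2 (median 30.6) and 28.4 to 52.3 (median 38.9), so that their averaged differences were -0.82 and -0.94. *Spink8*, a protease inhibitor, passed the p but not the fold threshold (0.34 ± 0.082, adjusted p = 5.9e-04).

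Layer markers of cortex split in both directions. Among 10 upper-layer markers, *Lamp5*, a membrane protein of superficial neurons, was called higher in cortex (-0.85 ± 0.069, adjusted p = 1.1e-18), *Calb1* and *Mdga1*, an adhesion protein of the immunoglobulin superfamily, were called higher in hippocampus (0.63 and 0.88 ± 0.071), and 7 were not called. *Cux2*, a homeobox factor of upper layers, gave -0.58 ± 0.081 and reached the adjusted p (6.2e-09) but lay just under the fold threshold of 0.585, *Cux1* gave -0.19, *Rorb* -0.03 and *Rasgrf2* 0.12. Among 18 deep-layer markers, 5 were called higher in cortex and 1 higher in hippocampus, with a median of -0.22. *Fezf2*, the factor that specifies subcerebral projection neurons, was at 15.01 to 49.3 (median 24.6) in hippocampus against 28.4 to 97.7 (median 61.4) in cortex, and it was the only deep-layer marker called in all 4 pairs (-1.15 ± 0.07, adjusted p = 1.9e-25). *Pcp4*, a calmodulin-binding peptide, had the largest difference of the list, -1.59 ± 0.065 (adjusted p = 1.2e-36), but at 14.7 to 44.7 (median 33.98) in CA, 150.4 to 213 (median 166) in DG and 113 to 363 (median 211) in cortex it was CA that differed. *Etv1*, *Nxph3* and *Sulf2* were called at -0.61, -0.79 and -0.75. *Bcl11b*, CTIP2, a deep-layer factor also known in hippocampal neurons, was called higher in hippocampus at 40.02 to 82.1 (median 53.8) against 19.4 to 52.5 (median 35.9), a difference of 0.66 ± 0.071 (adjusted p = 4.2e-13).

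Of 31 transcription factors of the telencephalon, 5 were called higher in hippocampus (*Zbtb20*, *Prox1*, *Neurod2*, *Bhlhe22* and *Bcl11b*) and 6 higher in cortex, among them *Mef2c*, *Fezf2*, *Id2*, *Lmo4* and *Tbr1*. *Zbtb20* alone of the first and *Mef2c*, *Fezf2* and *Id2* of the second were called in all 4 pairs. *Neurod2*, a bHLH factor of glutamatergic neurons, was at 128 to 257 (median 176) in DG, 55.2 to 123 (median 88.1) in CA and 40.02 to 88.6 (median 61.5) in cortex, a difference of 0.97 ± 0.057, and *Bhlhe22* differed by 0.93 ± 0.079. *Id2*, an inhibitor of bHLH factors, differed by -0.95 ± 0.072 and *Tbr1*, a T-box factor of early-born cortical neurons, by -0.73 ± 0.076 (adjusted p = 3.9e-20 and 1.1e-13).

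Among glutamate receptor genes (23 analysed), 2 were called higher in hippocampus, 3 higher in cortex and 18 not called, with a median of 0.04. Beside *Gria1*, the gene of the NMDA receptor subunit GluN2A, *Grin2a*, was higher in hippocampus. Its values ranged from 298 to 442 (median 339.8) in CA, from 295 to 416 (median 357) in DG, from 111 to 189.5 (median 164) in FCT and from 140.4 to 191 (median 167) in CT, without overlap between hippocampus and cortex, and its difference was 1.12 ± 0.046 (2.18-fold, adjusted p = 5.7e-37). The obligatory subunit *Grin1* was not called (0.11 ± 0.044, adjusted p = 0.058), and *Gria2*, the AMPA receptor subunit that limits calcium entry, reached 0.52 ± 0.045 (adjusted p = 2.1e-17), under the fold threshold. *Grik3*, a kainate receptor subunit, was higher in cortex (hippocampus minus cortex -0.93 ± 0.069), with 17.7 to 33.1 (median 25.1) in CA, 35.02 to 58.03 (median 51.1) in DG and 38.6 to 137 (median 68.4) in cortex. The metabotropic receptors *Grm8* and *Grm3* were called in all 4 pairs in favour of cortex, at -0.88 and -0.80.

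Of 13 GABA receptor genes, *Gabra5*, the subunit of extrasynaptic receptors long known as abundant in hippocampus, was called higher in hippocampus in all 4 pairs. It was at 56.03 to 126 (median 77.95) in hippocampus against 20.6 to 59.1 (median 45.4) in cortex, with 23 of 24 hippocampal AOIs above all cortical AOIs, and differed by 0.93 ± 0.06 (adjusted p = 5.1e-24). *Gabra3*, another alpha subunit, was called higher in cortex, at -0.76 ± 0.083 (adjusted p = 1.4e-12).

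Potassium and HCN channel genes (38 analysed) gave 4 calls for hippocampus and 7 for cortex, with a median of -0.12. *Kcnip2*, the KChIP2 accessory subunit of A-type channels, ranged from 153 to 240.1 (median 200.96) in CA, from 169 to 248 (median 213) in DG, from 46.9 to 114 (median 63.3) in FCT and from 51.7 to 101 (median 74.2) in CT. Its hippocampal and cortical AOIs did not overlap, and it differed by 1.53 ± 0.053 (2.88-fold, adjusted p = 1.7e-41), while *Kcnd2*, the A-type channel it binds, was called at 0.63. *Kcnj6*, a G-protein-gated channel, differed by 0.78 ± 0.056. On the cortical side *Kcnt1* was at 17.3 to 49.7 (median 27.00) in hippocampus against 63.5 to 133 (median 83.1) in cortex, *Kcnf1* differed by -0.85 ± 0.081 and *Kcna2*, an axonal channel, by -0.80 ± 0.067. *Kcnt1* and *Kcnf1* were called in all 4 pairs and *Kcna2* was not.

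Calcium signaling genes and plasticity kinases split in both directions, with 9 of 34 called higher in hippocampus, 8 called higher in cortex and a median of -0.01. *Camk2b*, the beta subunit of CaMKII, was at 131 to 250.1 (median 173) in CA, 219 to 389.9 (median 283) in DG and 80.05 to 150.1 (median 102) in cortex, and differed by 1.12 ± 0.048 (adjusted p = 1.5e-35). *Camk2a*, the alpha subunit, gave 0.36 ± 0.041 (adjusted p = 7.2e-12) and was not called, as the fold threshold was not reached, and *Camk2d* and *Camk2g* gave -0.39 and -0.65, the latter called. *Ppp3ca*, the catalytic subunit of calcineurin, was called in all 4 pairs at 0.81 ± 0.052. Among sensor proteins, *Hpca* and *Cabp7* were higher in hippocampus, whereas *Vsnl1*, *Cabp1* and *Ncald* were higher in cortex. *Cabp1* was at 48.3 to 89.6 (median 65.3) in hippocampus against 97.1 to 231 (median 158) in cortex, without overlap (-1.23 ± 0.054, adjusted p = 1.4e-34). *Ncald* differed by -0.90 ± 0.063, with 20.01 to 44.4 (median 33.2) in CA below all values of the other regions, 86.9 to 149 (median 117) in DG and 65.5 to 191 (median 119) in cortex.

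None of 19 immediate early genes was called higher in hippocampus and 5 were called higher in cortex (*Arc*, *Egr1*, *Nr4a1*, *Homer1* and *Dusp1*), none of them in all 4 pairs. The median of the list was -0.35, made of -0.12 for CA minus cortex and -0.50 for DG minus cortex. *Arc*, a regulator of AMPA receptor endocytosis, was at 109 to 273 (median 159) in CA, 33.4 to 71.04 (median 52.4) in DG, 61.5 to 518 (median 240.0) in FCT and 92.6 to 383 (median 218) in CT. DG lay below every CA value, cortex varied widely, and the difference was -1.17 ± 0.058 (adjusted p = 4.0e-31). *Egr1*, a zinc finger factor, followed with 69.7 to 140.1 (median 103) in CA, 23.3 to 47.5 (median 33.7) in DG and 65.1 to 235 (median 135) in cortex (-1.15 ± 0.059, adjusted p = 2.9e-30). *Nr4a1*, an orphan nuclear receptor, differed by -0.85 ± 0.071 and *Homer1*, a postsynaptic scaffold, by -0.82 ± 0.069. *Fos* and *Junb*, subunits of AP-1, gave -0.36 ± 0.093 and -0.37 ± 0.059 and did not pass the fold threshold.

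Of 36 Eph receptors, ephrins, semaphorins and related genes, 6 were called higher in hippocampus and 1 higher in cortex, with a median of 0.08. *Epha7* was at 48.9 to 180.1 (median 104) in hippocampus against 27.2 to 55.5 (median 36.3) in cortex (1.41 ± 0.063, adjusted p = 4.8e-34), and *Slit1*, a ligand of Robo receptors, at 64.04 to 192 (median 112) against 18.6 to 67.4 (median 38.7), a difference of 1.43 ± 0.066 (adjusted p = 3.0e-33). In both genes DG was above CA, by 0.67 and 0.92, the opposite order to *Epha6* (DG minus CA -1.20). *Epha4* differed by 0.94 ± 0.055 and *Plxna4*, a semaphorin receptor, by 0.88 ± 0.057, both more in DG than in CA. *Ephb6*, an Eph receptor without kinase activity, was the one gene of the list called higher in cortex, in all 4 pairs (-0.99 ± 0.069, adjusted p = 3.6e-22). Among 23 cadherins and protocadherins, 2 were called higher in hippocampus and 3 higher in cortex. *Pcdh20* was at 29.5 to 71.3 (median 48.3) in hippocampus against 13.7 to 42.6 (median 22.3) in cortex (1.04 ± 0.081), *Pcdh8* differed by 0.66 ± 0.077, *Pcdh7* by -0.95 ± 0.062 and *Pcdh10* by -0.82 ± 0.072. *Pcdh7* separated all 24 hippocampal from all 24 cortical AOIs. Of 24 Wnt pathway genes, *Dkk3* was the only one called, and *Wnt4* (-0.02) and *Fzd3* (-0.09) lay near 0.

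Of 9 corticosteroid receptors and targets, *Nr3c2* was the only gene called. The glucocorticoid receptor *Nr3c1* gave -0.18 ± 0.047 (adjusted p = 0.0029), *Fkbp5*, a glucocorticoid-induced chaperone, 0.11 ± 0.071, and *Sgk1*, a corticosteroid-induced kinase, -0.57 ± 0.07, just under the fold threshold. Of 16 neuropeptide genes, *Vgf* (-1.06 ± 0.067) and *Sst* (-0.79 ± 0.079) were called higher in cortex and none higher in hippocampus. *Cck*, cholecystokinin, was as high in CA, at 68.2 to 149 (median 101), as in cortex, at 50.3 to 170.3 (median 91.5), and low in DG, at 32.2 to 58.9 (median 45.6). Its averaged difference of -0.46 ± 0.06 was not called, and *Npy* gave 0.01. Of 30 neuropeptide and monoamine receptor genes, *Cckbr*, a cholecystokinin receptor, was the only one called, higher in cortex in all 4 pairs at 36.9 to 55.3 (median 47.5) against 16.2 to 47.6 (median 22.2) in hippocampus (-0.94 ± 0.077, adjusted p = 1.7e-18), while *Npy1r* and *Npy2r* gave 0.27 and 0.39.

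Of 10 neurofilament and fast axon genes, *Nefm* (-0.89 ± 0.067) and *Ina* (-0.63 ± 0.059) were called higher in cortex, with *Nefl* at -0.49, *Nefh* at -0.32 and a list median of -0.38. *Nefm* had no hippocampal AOI below all cortical AOIs, since 1 FCT AOI was at 39.6. Of 9 genes of adult neurogenesis, *Tubb3*, neuronal beta-tubulin, was called higher in cortex (-0.73 ± 0.059, adjusted p = 7.6e-19) and the other 8 were not called. *Dcx*, doublecortin of newborn neurons, gave -0.40 ± 0.085 and was at 12.5 to 25.7 (median 19.5) in DG, *Sox4* gave 0.28 and *Mki67*, a proliferation marker, 0.08.

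Markers of other cell types also moved with the regions, and their part in the results above was not tested. Of 13 genes of oligodendrocytes and myelin, 12 had negative differences, 5 were called higher in cortex and 4 of these in all 4 pairs, with a median of -0.42. The summed level of the list was 673 to 937 in CA, 587 to 961 in DG, 723 to 2172 in FCT and 831 to 2089 in CT. *Mbp*, myelin basic protein, was at 67.6 to 111 (median 83.1) in hippocampus against 106 to 292 (median 153) in cortex (-0.87 ± 0.051, adjusted p = 1.8e-26). *Mobp* (-1.06 ± 0.047) and *Cnp* (-0.79 ± 0.066) were called in all 4 pairs, *Cldn11* (-0.66) in the averaged comparison, and *Olig1* was not called (-0.42). *Ptgds*, a prostaglandin synthase of meninges and oligodendrocytes, was called in all 4 pairs (-0.97 ± 0.058) with wide ranges in every region, 41.4 to 168 (median 86.5) in hippocampus and 48.2 to 524 (median 154) in cortex, and was the only one called of 7 meningeal markers (*Dcn* 0.05, *Col1a1* 0.07).

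Of 14 astrocyte genes, *Slc1a2*, a glutamate transporter (-0.75 ± 0.046), *Glul*, glutamine synthetase (-0.68 ± 0.047), and *Aldoc* (-0.63 ± 0.057) were called higher in cortex, and *Gfap*, which guided AOI placement, was at 38.9 to 88.7 (median 48.97) in hippocampus against 18.3 to 41.1 (median 26.00) in cortex (0.93). *Aqp4* (0.16) and *Slc1a3* (-0.10) were not called, and the summed level of the list was 765 to 1175 in CA, 788 to 1073 in DG, 960 to 1452 in FCT and 1141 to 1561 in CT. Of 17 GABAergic interneuron genes, *Pvalb*, parvalbumin, and *Sst*, somatostatin, were called higher in cortex, both in all 4 pairs. *Pvalb* was at 8.28 to 36.9 (median 21.4) in hippocampus against 25.9 to 77.7 (median 45.2) in cortex, a difference of -1.10 ± 0.08 (adjusted p = 4.0e-21). *Gad1* gave -0.34 ± 0.065, *Gad2* -0.14 ± 0.068 and *Slc32a1* -0.56 ± 0.079, none of them called, and the summed level was 507 to 679 in CA, 484 to 623 in DG, 546 to 729 in FCT and 573 to 839 in CT. No gene was called among 10 microglial (*Cx3cr1* 0.10, *P2ry12* 0.07, *C1qa* 0.02), 8 endothelial (*Cldn5* -0.08, *Flt1* -0.11, *Slc2a1* -0.11) and 4 choroid plexus genes (*Kl* 0.33, *Clic6* 0.00, *Otx2* 0.18). The summed microglial level was 268 to 336 in CA, 218 to 295 in DG, 255 to 307 in FCT and 232 to 329 in CT.

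**Figure D3:**
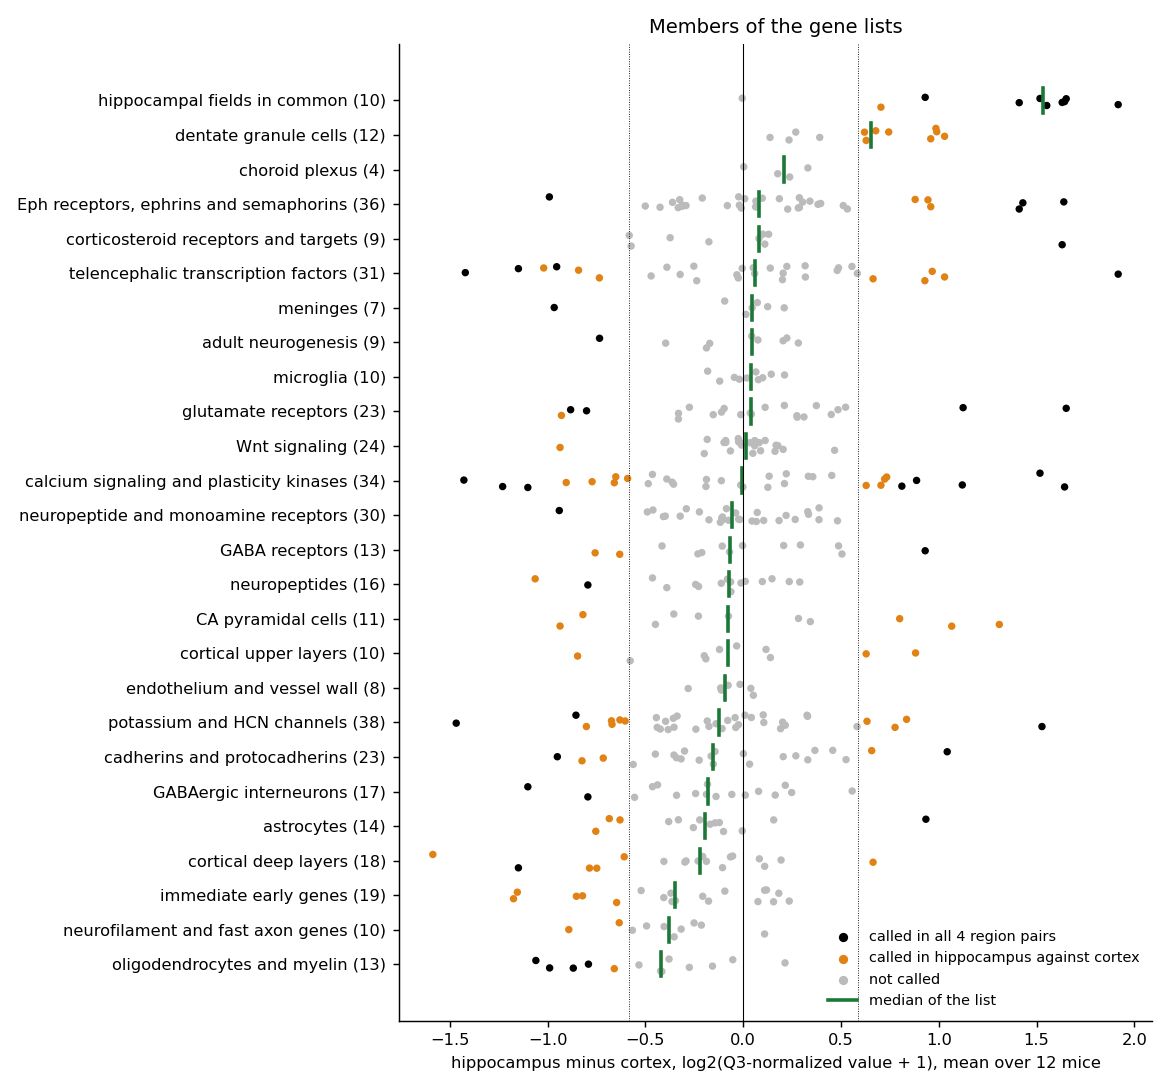
Each point is a gene of 1 of 26 lists, placed by its hippocampus minus cortex difference in log2(Q3-normalized value + 1), averaged over 12 mice (x axis). Black points were called in all 4 region pairs, orange points in the averaged comparison, grey points were not called, green bars mark list medians and dotted lines the fold threshold of 0.585. The genes common to hippocampal fields have the highest median, 1.53, and oligodendrocyte and myelin genes the lowest, -0.42.

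How far apart the regions of a mouse lay was measured as the root mean square difference in log2(value + 1) over the 13829 genes whose mean was above 1.5 times the negative controls. The 4 hippocampus to cortex pairs averaged 0.473 ± 0.037 log2 units (SD, n = 12), CA to DG 0.492 ± 0.039 and FCT to CT 0.364 ± 0.048. Hippocampus to cortex was farther than FCT to CT by 0.109 ± 0.023 in 12 of 12 mice, and nearer than CA to DG by 0.0192 ± 0.0117 in 12 of 12 mice (exact sign-flip permutation test, two-sided, p = 0.000488 for each). By the call rule 647 genes differed between DG and CA (4.1%), 380 higher in DG and 267 higher in CA, and 16 between FCT and CT (0.101%). The split of the first moved to 529 and 166 when AOIs were centred on their median. Depth and background differ between these pairs of regions as given above, and their part in the distances was not tested.

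**Figure D4:**
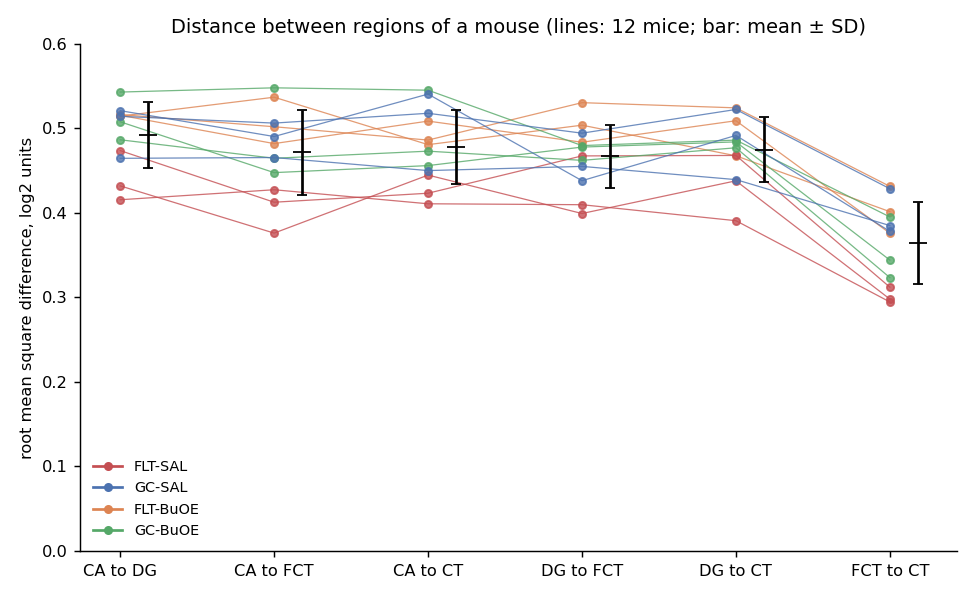
Root mean square difference between 2 regions of the same mouse (y axis, log2 units, from 0) for the 6 region pairs; each line joins the values of 1 of 12 mice, coloured by group, and bars give mean ± SD. FCT to CT lies lowest, at 0.364 on average, and CA to DG at 0.492 lies slightly above the 4 hippocampus to cortex pairs.

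The regional difference was present in every group. All 139 and all 364 called genes kept their direction in the mean of each of the 4 groups, and 88 and 183 of them were beyond the fold threshold in all 4. The median difference of the 139 genes was 0.79 in GC-SAL, 0.85 in GC-BuOE, 0.93 in FLT-SAL and 0.84 in FLT-BuOE, and that of the 364 genes -0.78, -0.86, -0.70 and -0.78. These genes were called on the same 12 mice, so the direction in a group is a description. The hippocampus to cortex distance had medians of 0.490 and 0.469 in GC-SAL and GC-BuOE, and of 0.415 and 0.497 in FLT-SAL and FLT-BuOE, and the median reads of an AOI were 628308, 639735, 991426 and 548888 in this order, so that the deepest group had the smallest distance. The part of depth in this was not tested.

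Whether the size of the regional difference varied with flight or BuOE was tested gene by gene (limma, adjusted p below 0.05, no fold threshold). It differed between FLT-SAL and GC-SAL for 15 genes (0.095%), between FLT-BuOE and FLT-SAL for 33 (0.209%), between FLT-BuOE and GC-BuOE for 2 (0.0127%), and among any of the 4 groups for 27 (0.171%). Between GC-BuOE and GC-SAL limma called 0 genes (0%), with 814 at an unadjusted p below 0.05, and edgeR and DESeq2 also called 0. The contrasts share mice, and slide cannot be told apart from group in each of them.

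*Arc* had the largest regional change of the genes named for these contrasts. The hippocampus minus cortex difference was -0.47, -0.22 and -0.02 in the 3 FLT-SAL mice, -1.76, -1.56 and -0.96 in GC-SAL, -1.82, -1.43 and -1.27 in FLT-BuOE and -1.97, -1.65 and -0.96 in GC-BuOE. FLT-SAL lay nearer 0 than all other mice, with *Arc* at 61.5 to 89.2 in FCT against 156 to 518 in the other groups and 92.6 to 129 in CT against 139 to 383. FLT-SAL minus GC-SAL was 1.19 ± 0.17 (SE, adjusted p = 3.9e-06) and FLT-BuOE minus FLT-SAL -1.27 ± 0.17 (adjusted p = 1.4e-07). The SD of the difference over 3 mice was 0.23 in FLT-SAL, 0.42 in GC-SAL and 0.28 in FLT-BuOE. DESeq2 on counts gave an adjusted p of 0.0074 and 0.0066 for the same contrasts. *Nrgn*, neurogranin, which binds calmodulin in dendritic spines, had differences of 0.17 to 0.79 in the FLT-SAL mice against -0.27 to -0.04 in GC-SAL, -0.42 to -0.04 in GC-BuOE and -0.73 to -0.33 in FLT-BuOE. It was thus above 0 in the 3 FLT-SAL mice and below 0 in the other 9, with FLT-SAL minus GC-SAL at 0.67 ± 0.11 (adjusted p = 5.7e-04) and FLT-BuOE minus FLT-SAL at -0.96 ± 0.11 (adjusted p = 1.6e-08).

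*Hpca*, a leading hippocampal gene in all groups, had differences of 1.46 to 1.68 in GC-SAL, 1.53 to 1.62 in GC-BuOE, 1.95 to 2.36 in FLT-SAL and 1.03 to 1.42 in FLT-BuOE. FLT-SAL minus GC-SAL was 0.61 ± 0.13 (limma, adjusted p = 0.0090). This call was lost without the block by mouse (adjusted p = 0.15) and without FLT-SAL mouse 1 (adjusted p = 0.25), among other alternatives. FLT-BuOE minus FLT-SAL was -0.98 ± 0.13 (adjusted p = 1.4e-07), with lower values in CA and DG and higher values in FCT and CT in FLT-BuOE (FCT 158 to 183 against 86.3 to 123). *Syt7*, synaptotagmin of asynchronous release, differed by 0.84 to 1.08 in FLT-SAL and 0.65 to 1.01 in FLT-BuOE against 0.02 to 0.50 in GC-SAL and 0.10 to 0.29 in GC-BuOE. FLT-SAL minus GC-SAL was 0.72 ± 0.13 (adjusted p = 0.0029) and FLT-BuOE minus GC-BuOE 0.68 ± 0.13 (adjusted p = 0.019). The first of these calls was lost without FLT-SAL mouse 1 (adjusted p = 0.0965) or GC-SAL mouse 1 (adjusted p = 0.0893), and the second without the block by mouse (adjusted p = 0.17).

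*Junb* differed by -1.11 to -0.70 in FLT-BuOE, -0.26 to 0.07 in GC-BuOE, -0.81 to -0.41 in GC-SAL and -0.13 to 0.17 in FLT-SAL. FLT-BuOE minus FLT-SAL was -0.96 ± 0.17 (limma, adjusted p = 3.3e-04) and kept its call in every alternative fit. FLT-BuOE minus GC-BuOE was -0.85 ± 0.17 (limma, adjusted p = 0.019, and 0.063 without the block by mouse). FLT-BuOE was higher than GC-BuOE in FCT, at 133 to 145 against 59.3 to 82.2. It was lower in DG, at 35.0 to 43.8 against 55.6 to 56.7, while CA and CT overlapped. *Camk2n1* differed by -1.58 to -1.38 in GC-SAL, -2.22 to -1.82 in GC-BuOE, -1.18 to -0.89 in FLT-SAL and -2.17 to -1.54 in FLT-BuOE (any of the 4 groups, adjusted p = 6.3e-09). FLT-BuOE minus FLT-SAL was -0.86 ± 0.12 for this gene (limma, adjusted p = 4.5e-07). *Camk2n1* had the smallest p of the contrast between GC-BuOE and GC-SAL, at -0.52 ± 0.12, which was not called (adjusted p = 0.49).

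**Figure D5:**
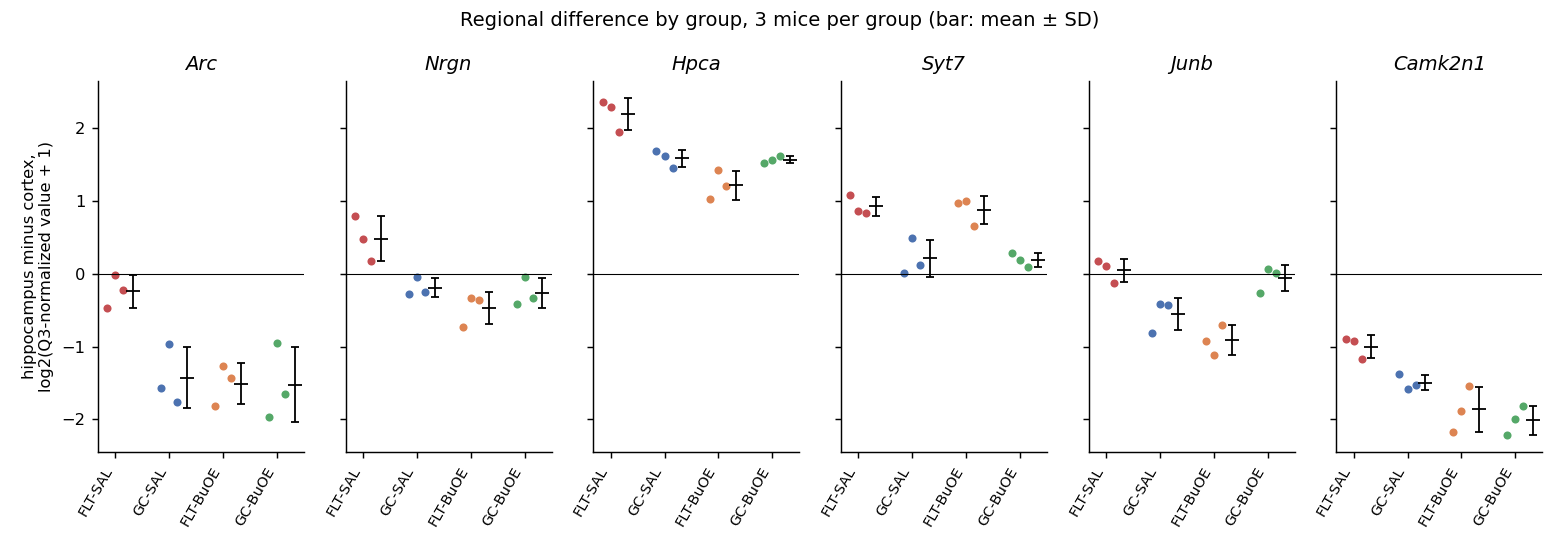
Hippocampus minus cortex difference in log2(Q3-normalized value + 1) (y axis, shared) of 6 genes by group, 1 point for each of 3 mice and a bar for mean ± SD. In *Arc* the FLT-SAL mice lie between -0.47 and -0.02 and the other 9 between -1.97 and -0.96; in *Nrgn* the FLT-SAL mice alone lie above 0.

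*Chic2* and *Gm52800* had the highest Q3-normalized values in hippocampus and in cortex, on a scale that is not per length and differs between probes. *Chic2* ranged from 3636 to 4544 (median 3977) in CA, from 6512 to 7932 (median 7196) in DG, from 4702 to 5758 (median 5276) in FCT and from 4897 to 5841 (median 5383) in CT. DG lay above and CA below both cortical regions for *Chic2*, and its averaged difference was 0.03 ± 0.034 (adjusted p = 0.65). *Gm52800* differed by 0.18 ± 0.034, with DG minus CA at 0.94.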

How the data were processed

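The mouse tissue was profiled in 48 AOIs of 4 regions and 12 mice, and group, region and replicate number were read from the labels. AOIs of a group with the same replicate number were taken as 1 mouse. The authors turned reads into a raw count per probe with the GeoMx NGS Pipeline, which collapses duplicate molecules, and deposited 1 count file per AOI. They used the GeoMx DSP Control Center to scale every AOI to a common upper quartile (Q3), and the deposited Q3-normalized signal of 15782 genes, 1 table per region, was the unit analysed. No genome build enters these steps, and coordinates were matched by symbol to the GENCODE annotation of GRCm38. The authors' tables of fold changes and p-values, which cover 12 comparisons between groups, were not used. There were 0 unused columns of values.

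Within-mouse differences of log2(Q3-normalized signal + 1) were fitted with limma 3.58.1 in R 4.3.3 (4 group means averaged with equal weight, 8 residual degrees of freedom, empirical Bayes with a mean-variance trend), two-sided, with Benjamini-Hochberg adjustment over 15782 genes. The negative-control row stayed out. A fold change is on the log2(value + 1) scale with no background subtracted, and understates the change of low genes. The study has no comparison of this kind, and its thresholds on p and fold were kept. Single values per mouse were compared with an exact sign-flip permutation test. The 4 AOIs with the same group and replicate number were taken to share the animal, so the mouse was the block by design. Deviations of AOIs of the same mouse from their group means correlated weakly across genes, with medians of 0.0143 to 0.0514 over the 6 region pairs against -0.0195 to -0.00693 for other mice of the group. All p-values come from mice of 1 slide per group, and those of limma rest only in part on the spread between these mice. The empirical Bayes step draws each gene's variance toward that of genes of similar level. It also adds degrees of freedom from those genes to the 8 residual ones. The SE and p of a gene can thus be smaller than its own mice alone would give. In FLT-SAL minus GC-SAL the SE was 0.17 for *Arc* and for *Junb*. The SD of the difference over the mice of a group was 0.23 to 0.52 for *Arc* and 0.16 to 0.22 for *Junb*. Very small adjusted p-values of limma are therefore not evidence from the spread between mice alone.

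For edgeR 4.0.16 (quasi-likelihood) and DESeq2 1.42.0, counts were recovered by dividing each AOI by its step between values, which gave whole counts (within 0.02) for 99.98% of values and 15779 genes with whole counts in all AOIs. The differential tests were tried on simulated data before use. In hippocampus against cortex over 15779 genes, limma called 100% of 100 genes changed by 1 log2 unit and 100% of 100 changed by 2, and 0 of 15479 unchanged genes. The changed genes were drawn from those above the median count. Draws were independent between AOIs, with no shift of background between regions and no slide effect. The result therefore does not cover low genes or such shifts, and recovery in the group contrasts is not given here.

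The regions compared and all gene lists were chosen with earlier results of these data known. Named genes were the 12 largest differences in each direction among genes called in all 4 pairs with the same sign in 12 mice, the 4 largest by their smallest pair difference, 2 to 6 members of each list, the 4 largest opposed between CA and DG, the 3 smallest p of each group contrast (1 where none was called), and the 2 highest levels in each structure. *Dusp1*, *Lmo4*, *Grm3*, *Kcnd2*, *Camk2d* and *Camk2g* were named after their values were seen, to complete a short count or a family. Alternatives changed the block, pseudocount, filter, background, scaling, test and mice, 1 at a time. A few genes are not reported here.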

Additional observations from a re-analysis of the deposited data

Results flagged for a closer look

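The size of the hippocampus minus cortex difference differed between groups for the following named genes, by a limma contrast of the group means of the within-mouse difference (adjusted over 15782 genes). Between FLT-SAL and GC-SAL it changed by 1.19 log2 units for *Arc*, 0.67 for *Nrgn* and 0.72 for *Syt7*. Between FLT-BuOE and FLT-SAL it changed by -0.96 for *Nrgn*, -0.98 for *Hpca* and -1.27 for *Arc*. Between FLT-BuOE and GC-BuOE it changed by 0.68 for *Syt7* and -0.85 for *Junb*. The test over all 4 groups gave an adjusted p of 6.3e-09 for *Camk2n1*, 6.3e-09 for *Arc* and 2.2e-08 for *Nrgn*. The contrasts between FLT-SAL and GC-SAL and between FLT-BuOE and FLT-SAL share the FLT-SAL mice, those between FLT-BuOE and FLT-SAL and between FLT-BuOE and GC-BuOE share the FLT-BuOE mice, and each group sat on its own slide, so slide and group cannot be told apart.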

How the results depend on the processing

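The counts of 139 and 364 genes stayed within 1.5 times under every alternative except subtraction of the negative-control value before the log, which gave 443 and 1194 genes and held all 139 and 364, and in which the counts over all 4 pairs went from 54 to 85 and from 170 to 336. Leaving out 1 mouse gave 139 to 146 and 355 to 382, and 52 to 59 and 160 to 175 over all 4 pairs. DG against CA went from 647 to 7317 genes under subtraction (7147 higher in DG, 170 higher in CA) and to 408 with a pseudocount of 10, and FCT against CT from 16 to 49 and to 3. No called named gene changed sign. With a pseudocount of 10, 10 called named genes fell under the fold threshold (among them *Aldoc*, *Bcl11b*, *Calb1*, *Cldn11*, *Etv1*, *Ina*, *Pcdh8*, *Sulf2* and *Tbr1*), and under subtraction 12 uncalled ones passed it. In ground mice alone 6 called named genes lost the call, and in saline mice alone 3. *Aldoc*, *Calb1* and *Etv1* also lost the call without FLT-BuOE 2, GC-SAL 3, and FLT-BuOE 2 or GC-BuOE 1, respectively. Leaving out mice moved DG against CA over 644 to 695 and FCT against CT over 12 to 23. Both differences between distances kept their direction and stayed past the threshold in the alternatives run for them (all genes, a pseudocount of 10, 1 mouse left out), with exact permutation p of 0.000488 to 0.00244.

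The alternatives for the genes on which CA and DG oppose were chosen after seeing the data. Against 1 gene higher in CA, 0 were called with a pseudocount of 10, 4 under subtraction, 3 with edgeR, 2 with DESeq2, 4 in saline mice, 2 in ground mice and 1 to 2 without 1 mouse (2 without FLT-BuOE 1, GC-BuOE 1, GC-BuOE 3, FLT-SAL 1, GC-SAL 1 or GC-SAL 3). Against 4 genes higher in DG, 2 were called with a pseudocount of 10, 71 under subtraction and 2 to 5 without 1 mouse (2 without GC-BuOE 1, FLT-SAL 2 or GC-SAL 2).

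For the group contrasts, with no replicate block for the mouse in place of the paired differences, 15 genes in FLT-SAL minus GC-SAL became 6, 33 in FLT-BuOE minus FLT-SAL became 17, 2 in FLT-BuOE minus GC-BuOE became 0 and 27 over any of 4 groups became 17, and with the mouse as a random replicate block they became 6, 18, 1 and 21. The counts of 139, 364, 54, 170, 1 and 4 genes were the same in both of these fits. With every region present once in every mouse, these fits leave each difference as it was and can move the p alone. Their agreement on these counts is therefore no independent support. Counts for FCT against CT in these fits are not given here, and the distances involve no such fit. FLT-SAL minus GC-SAL went from 15 to 2 without FLT-SAL mouse 1 and to 4 without FLT-SAL mouse 2 (2 to 20 over mice). FLT-BuOE minus FLT-SAL went from 33 to 17 under subtraction, to 11 without FLT-SAL 1, 13 without FLT-BuOE 1, 15 without FLT-SAL 2 and 16 without FLT-BuOE 2 (11 to 39 over mice). GC-BuOE minus GC-SAL went from 0 to 1 without GC-SAL 1 or GC-SAL 3 (0 to 1 over mice). FLT-BuOE minus GC-BuOE went from 2 to 5 under subtraction, to 0 with TMM scaling, median centring or DESeq2, to 6 without FLT-BuOE 3, to 1 without GC-BuOE 1 and to 0 without FLT-BuOE 1, FLT-BuOE 2, GC-BuOE 2 or GC-BuOE 3 (0 to 6 over mice), so neither *Junb* nor *Syt7* held in that contrast throughout. The test over any of 4 groups gave 11 without FLT-SAL 1, 17 without FLT-SAL 2, 45 without GC-SAL 3 and 49 without FLT-BuOE 3 (11 to 49 over mice), and it was not run with DESeq2. The causes were not tested beyond the construction of each alternative. With 3 mice a group and 1 slide for each, these contrasts are limited by the number of mice, and genes near the negative-control level by background.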
